A study of Mus musculus with 160 samples.

Results

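These data compare the 10 distal colon samples of the *Nckap1l* (Hem1) mouse line with the most RNA of 4 inflammation genes and the 10 with the least, 20 of the 31 samples of that line and of 160 samples in the whole series. The samples were chosen by a readout and not by a label. For each sample the CPM (the raw count of a gene scaled to a total of 1e6 counts) of *S100a8*, *S100a9*, *Il1b* and *Cxcl2* were turned into log2(CPM + 1), and their mean was the score. The 10 samples with the highest score are called high-score samples here, the 10 with the lowest are called low-score samples, and 11 samples lie between them. The mice were homozygous *Nckap1l* knockouts (16 samples) or wild type (15 samples) on the C57BL6/J strain, re-derived from an existing knockout model and bred from heterozygous pairs, with mixed genotypes sharing cages. The labels give no age, no kind of mutation and no cell type for the knockout, and both genotypes went through the same protocol. Dextran sulfate sodium (DSS), a polymer that injures the colonic epithelium, was given in drinking water for 5 days, water alone for 7 days, and tissue was taken at day 12. Treated and untreated mice were both sequenced, and which sample is which is not given in the sources used here. The score groups are therefore not DSS groups, and a high-score sample is only one with more RNA of these 4 genes.

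In the colon, an injured epithelium lets bacterial products reach resident macrophages and stromal cells, which release chemokines of the CXC family and cytokines such as interleukin 1 and interleukin 6. Endothelial selectins and integrin ligands then capture neutrophils and monocytes from the blood. S100a8 and S100a9 form calprotectin, an abundant neutrophil protein that is measured in stool as a marker of intestinal inflammation. Hem1, the product of *Nckap1l*, is the blood cell subunit of the WAVE complex, which drives branched actin at the front of migrating leukocytes. In bulk tissue, fewer cells of a type and less RNA per cell cannot be told apart.

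The 4 genes that chose the samples are given as a description only. The score was 0.444 to 1.74 (median 1.06) in the low-score samples, 1.86 to 4.34 (median 2.38) in the samples between, and 4.89 to 8.66 (median 6.90) in the high-score samples. At the edges, wild type 6 was the last low-score sample at 1.74 and wild type 5 the next at 1.86, while wild type 9 entered the high-score samples at 4.89 and wild type 15 stayed outside at 4.34. The step at the lower edge was small, and the step at the upper edge was larger. *S100a8* was 0.117 to 2.61 CPM in low-score and 32.6 to 544 CPM in high-score samples, and *Il1b* was 0.697 to 5.64 and 60.7 to 575 CPM. *Cxcl2* was 0 to 0.735 CPM in low-score samples, where 3 counts correspond to 0.170 to 0.198 CPM, and 5.13 to 113 CPM in high-score samples. These genes are left out of every count below.

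**Figure D1:**
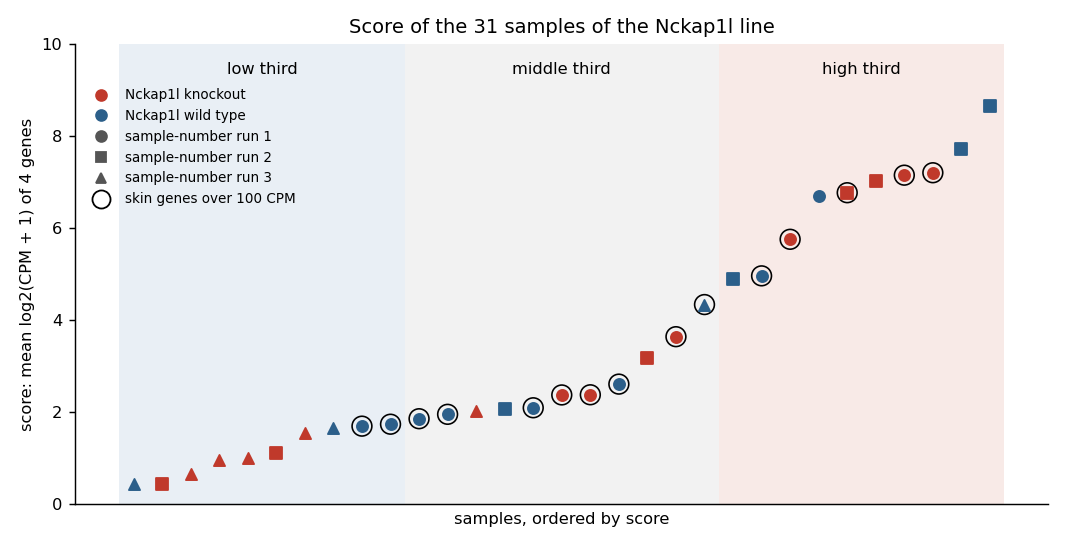
Score (mean log2(CPM + 1) of 4 genes) of each of the 31 samples of the *Nckap1l* line, ordered from lowest to highest. Colour gives genotype, marker shape gives the run of sample numbers, and rings mark the 15 samples whose summed skin keratinocyte genes passed 100 CPM. The high-score group starts at 4.89 and has no sample of run 3.

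Genotype and sex were spread over both groups, and the sample numbers were not. The high-score samples held 5 knockout and 5 wild type mice and 4 females, and the low-score samples 6 knockout and 4 wild type mice and 3 females (Fisher's exact test, two-sided, p = 1 for genotype and p = 1 for sex). The sample numbers in the labels fall into 3 runs separated by jumps of over 100. Run 1 gave 5 high-score and 2 low-score samples, run 2 (all male) 5 and 2, and run 3 none and 6 (exact permutation test, two-sided, p = 0.0161, adjusted over the 3 labels 0.0482). What a run stands for is not stated. Total counts on genes ranged from 15129793 to 18498086 over the line. They were 15129793 to 17681747 in low-score and 15539460 to 17754898 in high-score samples, so the depths of the groups overlapped.

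RNA of other tissues was present in part of the samples. Summed CPM of the skin keratinocyte list (15 genes, of which 9 could be fitted) passed 100 in 15 of 31 samples, 13 of them among the 14 of run 1. These 15 include 5 of 10 high-score samples (4 knockout, 1 wild type), 2 of 10 low-score samples (wild type 1 and 6) and 8 of the 11 between. The summed level ranged from 8.77 to 4672 CPM in low-score and from 14.4 to 10240 CPM in high-score samples. Striated muscle genes were also uneven, from 9.52 to 6337 CPM and from 15.98 to 12203 CPM. They were high in most samples with skin RNA and not in those alone, since knockout 9 had 417 CPM of striated muscle genes and 14.4 CPM of skin genes. Small intestine and pancreas genes stood at 1347 CPM in knockout 15 and 2942 CPM in knockout 16, both low-score, and at 9.71 to 20.4 CPM in the high-score samples. The part of these tissues in each result, and in the score itself, was not tested. Among low-score samples the 2 with skin RNA scored 1.70 and 1.74, and the 8 without it 0.444 to 1.66. Among high-score samples the 5 with skin RNA scored 4.96 to 7.20, and the 5 without it 4.89 to 8.66. The samples between scored 1.86 to 4.34 with skin RNA (8 samples) and 2.04 to 3.19 without it (3 samples). Without the samples with skin RNA the list median of eosinophil genes went from 1.57 to 0.82 and of mast cell genes from 1.56 to 0.93. That of type 3 immunity genes went from 0.52 to -0.13 and of interferon-gamma response genes from 1.01 to 1.51. The mast cell genes *Mcpt4* (2.56) and *Tpsb2* (2.12) and the type 3 gene *Il23r* (1.71) were not fitted without these samples. The paired medians of those lists therefore cover different genes.

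**Figure D2:**
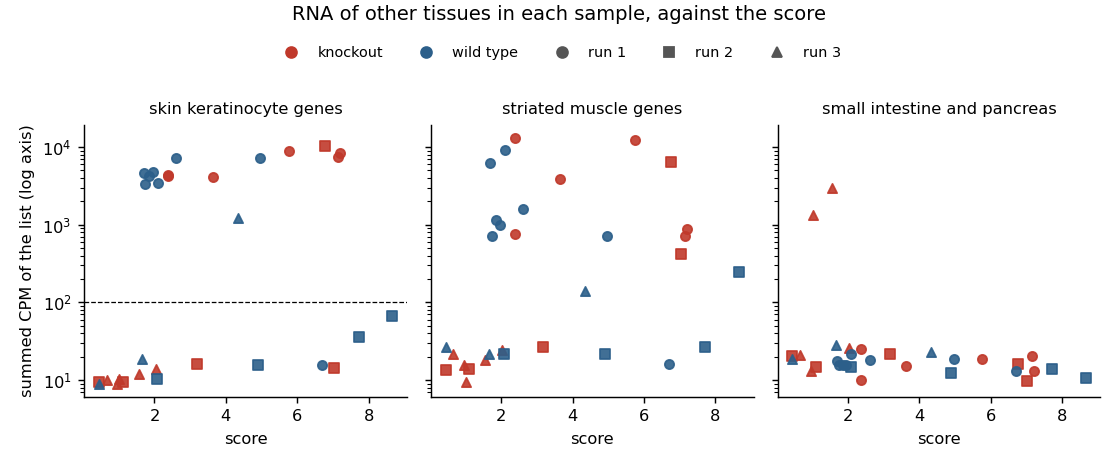
Summed CPM (log axis) of 3 lists of genes from other tissues against the score, 1 point per sample, with colour for genotype and marker for sample-number run. The dashed line marks 100 CPM of skin keratinocyte genes, passed by 15 of 31 samples at low, middle and high scores, and the small intestine and pancreas genes stand high in 2 low-score knockout samples.

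The score did not differ by genotype beyond the spread between samples. It was 3.33 ± 2.57 (SD, n = 16) in knockout and 3.56 ± 2.51 (SD, n = 15) in wild type mice, a difference of -0.23 (permutation test, two-sided, p = 0.798). The direction turned in females, where the knockout mean was 1.36 higher (exact permutation p = 0.380), and in run 1, where it was 1.80 higher (exact permutation p = 0.132). Each genotype pools treated and untreated mice in shares that are not known here. These tests of the score therefore cannot show whether the knockout changed the response to DSS. *Nckap1l* itself was lower in knockout than in wild type samples on the median in each score group and in the samples between, but the ranges overlapped in all 3, so single genotype labels were not checked by it. Among low-score samples it was 4.66 to 23.4 CPM (median 6.32) in knockout and 17.2 to 31.6 CPM (median 26.7) in wild type mice (exact permutation p = 0.0190, adjusted over the 3 sets 0.0571). Among high-score samples it was 16.5 to 70.0 CPM (median 37.97) and 36.7 to 134 CPM (median 57.04), with exact permutation p = 0.0794 and adjusted p = 0.119. In the samples between it was 6.50 to 37.9 CPM and 13.7 to 69.0 CPM (exact permutation p = 0.134, adjusted 0.134). Knockout samples kept counts on the gene, and its median in both genotypes was higher in high-score than in low-score samples. The fitted difference over all 20 was 1.82 ± 0.32 (SE) on the log2 scale, with ranges that overlapped.

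For each of 17466 genes that passed the filter, edgeR gave a log2 difference of high-score minus low-score samples with genotype in the model. A gene was called when that difference was at least 1 in size and the CPM of the 10 high-score samples did not overlap those of the 10 low-score samples. No p-value is given for this contrast, because the samples were selected on RNA of the same libraries. By this rule 368 genes (2.11%) were higher and 200 (1.15%) were lower in high-score samples, and the median over all genes was 0.01. With the sample-number run added to the model, 365 and 166 genes were called, of which 362 and 161 were among the 368 and 200. With score groups taken within each run, 260 and 109 were called, of which 165 and 75 were among them. Of the 368, 192 differed by at least 2 on the log2 scale and 37 by at least 4, and of the 200, 49 by at least 2 and 2 by at least 4. The samples between the groups had a median between both for 327 of the 368 genes and 198 of the 200. For the higher genes it lay 18.9% of the way from the low-score to the high-score median, and for the lower genes 36.4%. The filter let in genes with counts in as few samples as 1 score group, so the counts of list members below cover only the members that passed it. At shares of 2.11% and 1.15% a short list would often hold no called member. Lists below with none called, such as mast cell, claudin, goblet and stem cell genes, are not set apart by that from all genes.

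**Figure D3:**
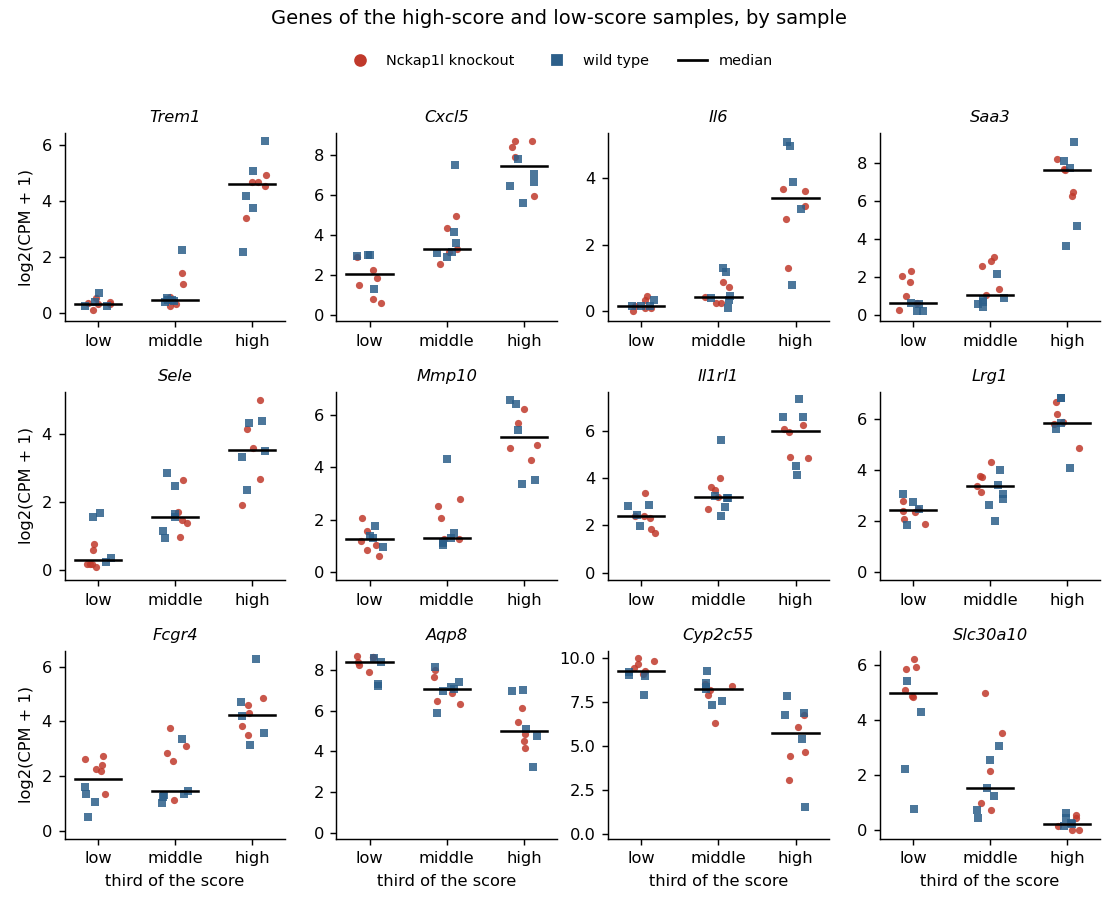
Level of 12 genes, as log2(CPM + 1), in each sample of the low-score, middle and high-score samples. Circles are knockout and squares wild type samples, and lines are medians. The first 9 genes do not overlap between the high-score and low-score samples and are higher in the high-score samples, and the last 3 are lower in it.

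The score genes include neutrophil genes, a CXC chemokine and an interleukin 1 gene. High values for the chemokine and neutrophil lists therefore follow in part from how the samples were chosen. Chemokines and acute cytokines that attract and release neutrophils held 9 called members of 14, all higher, with a median log2 difference of 4.07. The largest was *Cxcl3*, a ligand of the neutrophil receptor CXCR2. It was 0 to 0.339 CPM (median 0.0295) in low-score samples, 5 of which had no count, and 1.61 to 34.0 CPM (median 19.2) in high-score samples, a log2 difference of 7.64 ± 0.74 (SE). The lowest high-score value, in wild type 9, was still above every low-score value. *Cxcl5*, another CXCR2 ligand, was 0.529 to 7.14 CPM and 47.5 to 414 CPM (5.71 ± 0.59). *Il6*, a cytokine that signals through STAT3, was 0 to 0.373 CPM (median 0.117) and 0.733 to 33.5 CPM (median 9.63), a difference of 6.20 ± 0.65. Its high-score range spanned wild type 3 and knockout 2, the lowest at 0.733 and 1.47 CPM, and wild type 10 at 33.5 CPM. *Csf3*, which encodes the granulocyte growth factor G-CSF, was 0 to 0.356 CPM and 1.12 to 15.1 CPM (5.97 ± 0.66). *Osm*, *Il1a*, *Cxcl1*, *Il33* and *Tnf* were also called, with log2 differences of 4.77, 4.48, 4.19, 3.05 and 2.66. *Ptgs2*, *Il11*, *Lif*, *Il1rn* and *Ccl20* were not called, at 2.62, 3.94, 1.28, 0.72 and -0.28.

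The neutrophil list held 9 called members of 18, all higher, with a median log2 difference of 4.66. *Trem1*, a receptor that amplifies neutrophil and monocyte activation, was 0.0661 to 0.622 CPM (median 0.249) in low-score and 3.48 to 69.5 CPM (median 23.4) in high-score samples, a difference of 6.39 ± 0.48. *Mmp8*, the neutrophil collagenase, was 0 to 0.528 CPM and 2.70 to 49.2 CPM (6.26 ± 0.68). *Clec4e*, which encodes the C-type lectin Mincle, was 0 to 1.51 CPM and 8.17 to 162 CPM (6.03 ± 0.67). *Cxcr2*, the receptor of the chemokines above, was 0 to 1.49 CPM and 4.31 to 70.5 CPM (5.81 ± 0.56). *Retnlg*, *Fpr1*, *Hdc*, *Clec4d* and *Csf3r* were called as well, at 4.64 to 5.70. *Csf3r* encodes the receptor of G-CSF, so both the ligand and the receptor were called. *Ltf*, the granule protein lactoferrin, had a difference of 6.56 ± 1.90 and was not called. Its 5 highest samples, at 300 to 968 CPM, were the 5 high-score samples with skin RNA, and its 5 other high-score values were 5.21 to 15.7 CPM. Its difference was 4.77 without the samples with skin RNA and -1.94 within run 1. For that fit run 1 was grouped anew, with wild type 1, 4, 5 and 6 low and wild type 8 and knockout 2, 4 and 5 high. With genotype in the model, each fitted difference within run 1, here and below, compares wild type 8 alone with the low samples. Wild type 8 is also the only run 1 sample without skin RNA. *Ly6g*, *Slfn4*, *Pglyrp1*, *Cd177* and *Sorl1* were also not called, at -0.35 to 1.11.

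Adhesion molecules that bring leukocytes out of the blood held 8 called members of 15, all higher (median 2.05). *Sele*, the endothelial E-selectin, was 0.0587 to 2.17 CPM (median 0.230) in low-score and 2.74 to 31.2 CPM (median 10.7) in high-score samples, a difference of 4.51 ± 0.61. *Selp*, the P-selectin of platelets and endothelium, was 1.12 to 8.199 CPM and 10.7 to 107 CPM (4.21 ± 0.47). On the leukocyte side, *Selplg*, the shared selectin ligand PSGL-1, was 2.91 to 10.6 CPM and 12.4 to 66.5 CPM (2.45 ± 0.28). Both endothelial selectins and their ligand were thus higher without overlap. The integrin genes *Itgam*, *Itgal* and *Itgb2* (2.33, 2.26 and 2.22) and their ligand *Icam1* (2.05) were called, and *Vcam1*, *Madcam1*, *Ackr1*, *Itgb7*, *Itga4*, *Cdh5* and *Pecam1* were not, at 0.86 to 1.92.

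Monocyte and macrophage genes held 9 called members of 21, all higher (median 1.70). *Ccl3*, a chemokine of activated macrophages, was 0.0587 to 0.682 CPM in low-score and 0.772 to 28.6 CPM in high-score samples (4.52 ± 0.61). *Fcgr4*, an activating Fc receptor, was 0.416 to 5.71 CPM and 7.82 to 77.7 CPM (3.18 ± 0.49). *Fcgr1*, *Ccr2*, *Lyz2*, *Msr1*, *C1qa*, *Csf1r* and *Adgre1* were called at 1.26 to 2.19, smaller differences than those of the neutrophil members named above. *Chil3* (4.88 ± 0.93) and *Arg1* (4.17 ± 1.21), genes of alternatively activated macrophages, overlapped between the groups. *Arg1* was over 200 CPM in the 5 high-score samples with skin RNA, and its difference was 2.42 without the samples with skin RNA and -3.42 within run 1. *Acod1*, which makes itaconate in activated macrophages, belongs to no list and was among the 12 highest genes. It was 0.235 to 2.15 CPM in low-score and 8.47 to 334 CPM in high-score samples (6.17 ± 0.74).

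Lymphocyte genes were mostly above 0 on the log2 scale but overlapped. Of 15 T and NK cell genes all 15 were above 0 (median 1.56) and 3 were called, *Gzmb* (granzyme B, 0.176 to 1.12 CPM against 1.71 to 10.9 CPM, 3.13 ± 0.37), *Icos* (2.50 ± 0.31) and *Cd3d* (1.81 ± 0.31). *Ctla4*, an inhibitory receptor of activated and regulatory T cells, was 0 to 1.00 CPM and 0.471 to 21.8 CPM (3.45 ± 0.53) and was not called. *Foxp3*, the transcription factor of regulatory T cells, differed by 0.75. Of 17 B cell and plasma cell genes only *Prdm1*, which drives plasma cell differentiation, was called (6.46 to 28.4 CPM against 30.7 to 83.8 CPM, 2.14 ± 0.27). *Jchain* and *Pigr*, of the secreted antibody route, were at -0.58 and -0.42. Eosinophil genes held 2 called members of 7 (median 1.57), *Il5ra*, the interleukin 5 receptor (0 to 0.509 CPM against 1.59 to 14.5 CPM, 4.32 ± 0.49), and the eotaxin receptor *Ccr3* (2.39 ± 0.38). None of the 7 mast cell genes was called (median 1.56), and their median was -2.15 within run 1 with its score groups taken anew.

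The antimicrobial and acute-phase list held 5 called members of 19, all higher (median 1.72). *Saa3*, an acute-phase apolipoprotein of inflamed tissue, was 0.177 to 4.02 CPM (median 0.58) in low-score and 11.6 to 568.1 CPM (median 203) in high-score samples, a difference of 7.46 ± 0.79. *C3*, the central complement protein, was 113 to 403 CPM and 424 to 3252 CPM (2.76 ± 0.29). *Duox2* and its maturation factor *Duoxa2*, which make hydrogen peroxide at the epithelial surface, were called at 1.72 and 2.38, as was the protease inhibitor gene *Wfdc18* at 2.16. *Nos2* (4.86 ± 0.67), the inducible nitric oxide synthase, and *Lcn2* (3.90 ± 0.54), which binds bacterial siderophores, overlapped, at 1.70 to 26.7 CPM against 20.95 to 448 CPM and at 0.88 to 12.4 CPM against 6.96 to 121 CPM. *Retnlb*, *Reg4* and *Ang4*, products of goblet and Paneth-type cells, were at 3.01, -1.26 and -1.12 and were not called.

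Genes of the interleukin 6 family and STAT3 targets held 4 called members of 16, all higher (median 1.26). *Lrg1*, an acute-phase glycoprotein, was 2.65 to 7.39 CPM (median 4.41) in low-score and 15.9 to 112 CPM (median 57.4) in high-score samples (3.88 ± 0.32). *Socs3*, the feedback inhibitor of the interleukin 6 receptor, was 8.26 to 39.0 CPM and 54.9 to 372 CPM (3.28 ± 0.39). *Il4ra* (2.08 ± 0.24) and *Pim1* (2.01 ± 0.23) were called, while *Stat3*, *Il6st* and *Il6ra* differed by 0.73, 1.03 and 0.57. The ligand *Il6* and the target *Socs3* were thus called and the receptor chains were not.

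The start-site windows of 3 called higher genes and 1 called lower gene are shown, because *Il6*, *Saa3* and *Socs3* are a ligand, an acute-phase product and a STAT3 target of the lists above and *Cyp2c55* is the called member with the lowest difference of the colonocyte list described below. Each is the 250 bases before and 50 after the start in RefSeq (GRCm38.p6), 5′ to 3′ on the gene's strand, with the letters of a searched motif in capitals. They lie at chr5:30012864-30013163 (+), chr7:46715627-46715926 (-), chr11:117969317-117969616 (-) and chr19:39006769-39007068 (+), in that order.
Il6: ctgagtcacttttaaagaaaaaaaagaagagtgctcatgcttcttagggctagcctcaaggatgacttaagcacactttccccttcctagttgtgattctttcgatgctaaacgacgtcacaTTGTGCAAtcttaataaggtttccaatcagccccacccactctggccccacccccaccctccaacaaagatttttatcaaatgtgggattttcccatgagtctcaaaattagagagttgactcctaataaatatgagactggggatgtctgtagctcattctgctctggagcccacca
Saa3: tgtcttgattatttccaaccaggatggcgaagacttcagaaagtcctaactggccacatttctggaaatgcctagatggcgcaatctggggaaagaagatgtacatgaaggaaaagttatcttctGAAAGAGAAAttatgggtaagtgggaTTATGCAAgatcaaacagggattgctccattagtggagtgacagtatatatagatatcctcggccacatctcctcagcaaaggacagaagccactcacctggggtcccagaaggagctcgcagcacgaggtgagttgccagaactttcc
Socs3: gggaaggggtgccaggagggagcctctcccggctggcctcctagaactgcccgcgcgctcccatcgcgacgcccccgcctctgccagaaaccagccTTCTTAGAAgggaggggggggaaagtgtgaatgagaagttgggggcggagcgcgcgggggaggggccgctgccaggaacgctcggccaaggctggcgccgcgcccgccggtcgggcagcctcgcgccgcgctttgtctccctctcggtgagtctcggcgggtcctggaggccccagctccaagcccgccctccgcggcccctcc
Cyp2c55: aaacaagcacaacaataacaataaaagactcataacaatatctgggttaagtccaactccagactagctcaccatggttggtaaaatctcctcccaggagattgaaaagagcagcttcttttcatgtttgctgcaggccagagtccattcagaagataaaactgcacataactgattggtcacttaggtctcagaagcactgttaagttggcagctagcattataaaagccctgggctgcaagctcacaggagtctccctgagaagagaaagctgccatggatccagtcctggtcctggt
The capitals in *Il6* mark a C/EBP motif (TTGCNNAA) that starts 128 bases before the start site. In *Saa3* they mark an interferon motif (2 GAAA separated by any 2 bases) 125 bases and a C/EBP motif 99 bases before it, and in *Socs3* a STAT motif (TTCNNNGAA) 154 bases before it. *Cyp2c55* had no match, and no 2 of the matches shown overlap. The windows shown held none of the NF-kB letters searched (GGGNNTTCC), and longer forms of that site were not searched. The *Il6* window holds the longer run gggattttcc in lower case. A lack of capitals therefore does not mean a lack of NF-kB sites.

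Both strands of the windows of 266 of the 366 higher genes with a symbol, 141 of the 198 lower genes and 12187 of all 17264 were searched. C/EBP letters were in 12.4% of the higher, 12.8% of the lower and 8.49% of all windows searched. STAT letters were in 10.9%, 5.67% and 7.03%, and interferon letters in 7.89%, 2.84% and 3.13%. The NF-kB letters GGGNNTTCC were in 7.52%, 4.26% and 7.06%. These are 9 bases, and longer forms of the site were not searched, so these shares do not cover all known site forms. Letters for HNF4 (CAAAGTCCA) and CDX (TTTATGG), factors of intestinal epithelium, were in 0.709% and 1.42% of the lower and 0.443% and 1.64% of all windows. Of all 27025 windows in the RefSeq table, 5.72% held the NF-kB letters, 10.8% C/EBP, 8.47% STAT and 3.49% interferon letters. A match is a description of letters and not of binding.

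Wound repair and epidermal growth factor ligands held 3 called members of 18, all higher (median 1.83). The median was 0.65 in wild type and 1.90 in knockout samples fitted alone, 0.39 within run 1, 0.83 within run 2 and 1.06 with run in the model. *Il1rl1*, the receptor of interleukin 33, was 2.23 to 9.43 CPM (median 4.32) in low-score and 16.5 to 164 CPM (median 63.3) in high-score samples (3.76 ± 0.41), and its ligand *Il33* was 3.77 to 12.7 CPM and 18.5 to 209 CPM (3.05 ± 0.35). *Ereg*, the growth factor epiregulin, was 5.34 to 24.1 CPM and 30.1 to 433 CPM (3.49 ± 0.41), and *Ly6a*, known from regenerating colonic epithelium, was called at 1.88 ± 0.23. *Areg* and *Hbegf*, other ligands of the same receptor, were at 1.45 and 1.94 and were not called. *Sprr2h* (3.99) and *Trim29* (3.87) had larger differences than the called members and overlapped. *Trim29* was 111 and 151 CPM in the low-score samples with skin RNA, at most 2.42 CPM in the other low-score samples, and 207 to 264 CPM in the high-score samples with skin RNA against 1.91 to 6.16 CPM in the other high-score samples. Its difference was 2.12 without the samples with skin RNA.

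Matrix proteases and their inhibitors held 6 called members of 18, all higher (median 1.99). *Mmp10* and *Mmp3*, stromelysins that cleave many matrix proteins, were 0.529 to 3.14 CPM against 9.29 to 95.3 CPM (4.85 ± 0.47) and 0.661 to 6.31 CPM against 15.3 to 163 CPM (4.41 ± 0.46). *Mmp25*, *Plat*, *Plau* and *Mmp14* were called at 1.06 to 2.90, and *Mmp13* (3.46), *Adamts4* (3.52) and *Timp1* (2.95) overlapped. All 24 collagen and fibroblast genes were above 0 (median 1.13), and 2 were called. *Col3a1*, a fibrillar collagen, was 564 to 1953 CPM and 2005 to 6941 CPM (1.61 ± 0.22), and *Col18a1*, a basement membrane collagen, was 47.8 to 122 CPM and 131 to 442 CPM (1.71 ± 0.21). *Lox*, which crosslinks collagen, was at 2.45 ± 0.33 with 1 low-score sample above the lowest high-score value of 40.2 CPM. Of 19 stromal Wnt, R-spondin and BMP genes, *Sfrp1*, a secreted Wnt inhibitor, was called (1.87 ± 0.26), and the BMP inhibitor *Grem1* overlapped at 1.86 ± 0.40.

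Interferon response genes had medians above 0 and none was called, where 2.11% of all genes were called higher. At that share lists of this size would often hold no called member. All 20 interferon-gamma response genes were above 0 (median 1.01), led by *Ido1* (0.475 to 12.3 CPM against 2.25 to 70.6 CPM, 2.99 ± 0.76), *Cxcl9* (2.63 ± 0.88) and *Cxcl10* (2.40 ± 0.55). Their median was 1.76 in wild type and 0.42 in knockout samples fitted alone. Of 19 type I interferon response genes 17 were above 0 (median 0.64), with *Oas2* highest at 1.82 ± 0.39. The 9 type 3 immunity genes that passed the filter had a median of 0.52, with *Il23r* at 1.71 ± 0.31 and *Il22ra2*, the secreted interleukin 22 inhibitor, at -1.19 ± 0.41.

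**Figure D4:**
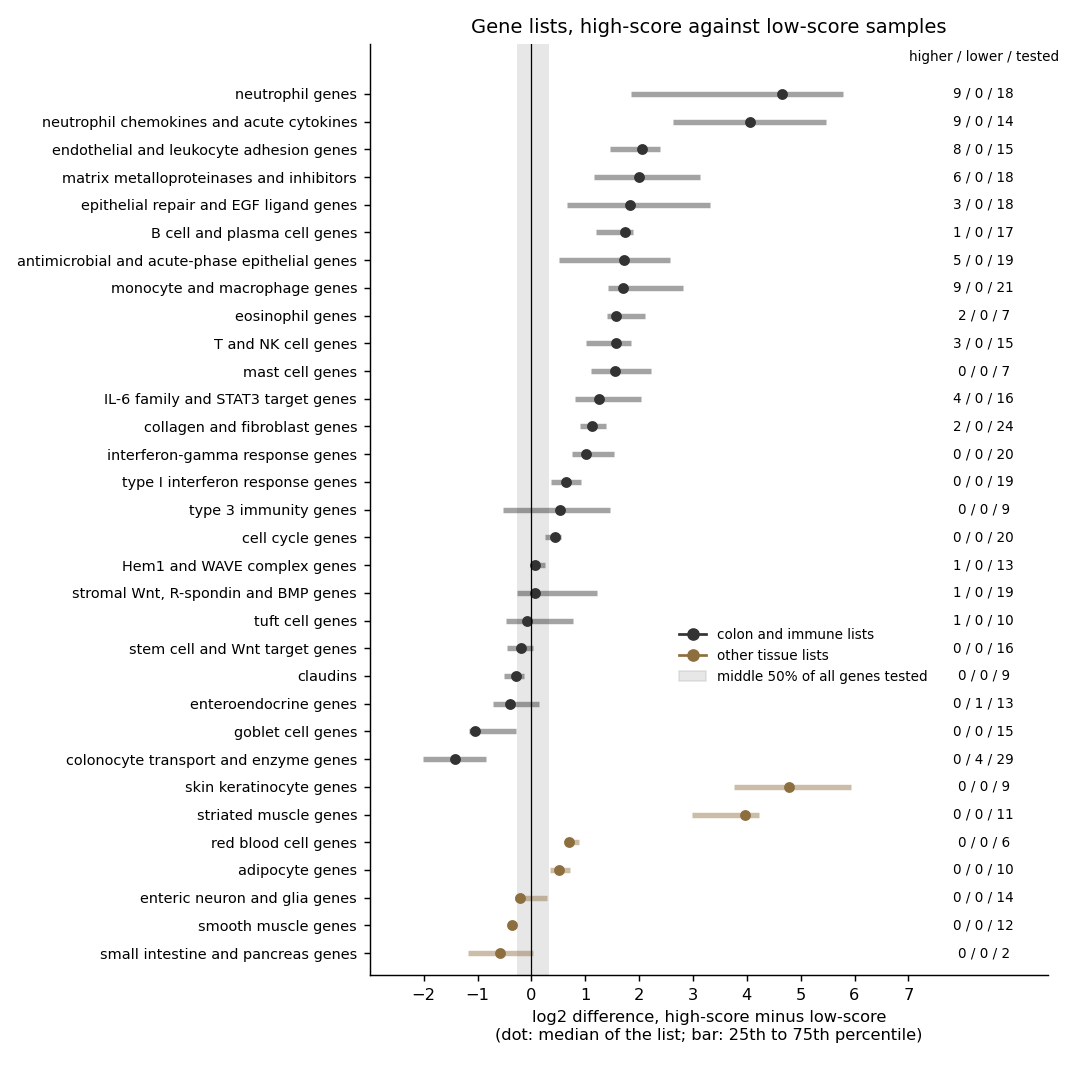
Median log2 difference of high-score minus low-score samples (dot) and its 25th to 75th percentile (bar) for the 32 gene lists, with the members called higher, called lower and fitted at the right. The grey band is the middle 50% of all 17466 genes, -0.26 to 0.32. Neutrophil and chemokine lists lie farthest right among the colon and immune lists and the colonocyte list farthest left, while skin and striated muscle genes lie far right with no called member.

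Colonocyte transport and enzyme genes were lower. Of 29 members 26 were below 0 (median -1.42), and 4 were called lower against 1.15% of all genes. *Cyp2c55*, a cytochrome P450 of the colon, was 241 to 1017 CPM (median 611) in low-score and 1.88 to 230 CPM (median 54.1) in high-score samples, a difference of -3.23 ± 0.63. Its lowest low-score value was in wild type 6 and its highest high-score value in wild type 11, only just apart. *Aqp8*, a water channel of the surface epithelium, was 146 to 405 CPM and 8.32 to 126 CPM (-2.67 ± 0.45). *Abcb1a*, a drug efflux pump, was 437 to 1219 CPM and 47.5 to 311 CPM (-2.50 ± 0.32), and *Car2*, a carbonic anhydrase, was 444 to 983 CPM and 84.5 to 304 CPM (-2.01 ± 0.24). *Slc9a3*, the sodium proton exchanger NHE3, had a difference of -3.27 ± 0.88 and was not called, with 4.10 and 4.53 CPM in the low-score samples wild type 1 and 6 and up to 38.8 CPM in high-score samples. Within run 1 its difference was 2.70, which rests on wild type 8. *Car1*, *Slc26a3*, *Guca2a* and *Car4* were at -2.20 to -1.80 and overlapped, and *Cyp4b1*, *Slc51b* and *Guca2b* were at 0.54, 0.29 and 0.04. The list median was -0.82 in wild type and -2.02 in knockout samples fitted alone.

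Some of the lowest genes belong to no list. *Slc30a10*, a manganese exporter, was 0.713 to 71.9 CPM (median 30.2) in low-score and 0 to 0.550 CPM (median 0.185) in high-score samples (-6.85 ± 0.70), and its 2 lowest low-score values were those of wild type 1 and 6. *Sycn*, a secretory granule gene, was 160 to 289 CPM and 8.04 to 63.3 CPM (-2.94 ± 0.30). *Itih2*, *Wnt8b*, *Rims4* and *Gal3st2c* differed by -2.74 to -2.91. *Ces1e*, *Odf3b* and *Mettl7a2* were between 2.11 and 11.4 CPM in low-score samples and at 1.54 CPM or below in high-score samples (-3.22, -3.15 and -3.12). *Ces1e* and *Mettl7a2*, like *Stfa2l1* among the higher genes, have near-identical copies, so reads may be split between copies and these values are uncertain. *Pnliprp1* and *Clps*, pancreatic lipase genes, had differences of -7.79 ± 1.68 and -3.68 ± 0.77. Their highest values, 373 and 182 CPM for *Pnliprp1* and 169 and 88.8 CPM for *Clps*, were in knockout 16 and 15, and without these samples the differences were -3.10 and -2.22.

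Further genes complete the 12 highest. *Stfa2l1*, a stefin of neutrophils, was 0 to 0.198 CPM in low-score samples, 7 of which had no count, and 0.772 to 12.3 CPM in high-score samples (7.14 ± 0.69). *Clca4b*, an epithelial gene, was 2.58 to 74.2 CPM (median 9.65) and 597 to 2002 CPM (median 1003), a difference of 5.81 ± 0.68. Its median in the samples between was 319 CPM, while that of *Trem1* was 0.373 CPM there, within the low-score range. The keratin *Krt90* was 0 to 0.806 CPM and 1.59 to 66.1 CPM (6.15 ± 0.74), and its difference was 6.67 without the samples with skin RNA.

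Goblet cell genes were lower on the median (-1.06), with 12 of 15 below 0 and none called. *Clca1*, a secreted goblet cell protein, was 863 to 7768 CPM and 101 to 3008 CPM (-1.78 ± 0.51), and *Muc2*, the main mucin of the mucus layer, was at -0.68. The goblet median was 1.04 within run 1, where it rests on wild type 8, and -0.95 within run 2. None of 16 stem cell and Wnt target genes was called (median -0.19). *Lgr5* and *Ascl2*, of crypt base stem cells, were at -1.50 ± 0.29 and -1.65 ± 0.27, and *Cd44* was at 1.74 ± 0.29. Of 20 cell cycle genes 18 were above 0 (median 0.45) with *Rrm2* highest at 1.21 ± 0.20 and none called. Of 13 enteroendocrine genes *Ddc*, which makes serotonin and dopamine, was called lower (59.5 to 101 CPM against 8.81 to 52.9 CPM, -1.23 ± 0.25). Of 10 tuft cell genes *Alox5ap*, which leukocytes also express, was called higher (2.42 ± 0.29), and *Trpm5*, the tuft cell channel, was at -1.86 ± 0.30. *Pou2f3*, the tuft cell transcription factor, was at 1.85 ± 1.15 over all and at -2.31 without the samples with skin RNA. None of 9 claudins was called (median -0.28). *Cldn1* was at 1.99 ± 0.96, at 0.08 without the samples with skin RNA and at -3.45 within run 1.

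Among lists of other tissues no member was called. The medians were 4.79 for skin keratinocyte genes, 3.97 for striated muscle, 0.50 for adipocytes, 0.69 for red blood cells, -0.37 for smooth muscle, -0.20 for enteric neurons and glia and -0.57 for the 2 small intestine and pancreas genes that passed the filter. Some of these medians turned with the samples used. Skin genes were at -0.77 in wild type and 8.45 in knockout samples fitted alone and at -7.78 within run 1. Values within run 1 rest on wild type 8, the only sample of that run without skin RNA. Striated muscle genes were at -2.83 and 8.05, at -6.67 within run 1, at -0.37 with run in the model and at 0.38 without the 2 samples with small intestine and pancreas RNA. Adipocyte genes were at -0.59 and 1.52 and at -1.83 within run 1. Skin genes were at 1.09 and adipocyte genes at -0.22 when the 5 high-score and 2 low-score samples with skin RNA were left out. *Krt5* and *Krt14*, keratins of the basal epidermis, were 0.0659 to 584 CPM and 0.413 to 434 CPM in low-score and 0.358 to 1626 CPM and 1.59 to 1361 CPM in high-score samples, so both ranges overlapped.

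Whether the difference between high-score and low-score samples depended on genotype was tested over all genes. edgeR's quasi-likelihood test of the interaction called 0 of 17466 genes (0%) at an adjusted p of 0.05, with 2462 genes at an unadjusted p below 0.05. limma-voom called 0 genes with 2330 at an unadjusted p below 0.05, and DESeq2 called 361, among them all 20 skin and striated muscle list genes that were fitted. The smallest adjusted p in edgeR was 0.0595, and the genes with the smallest p include *Scn4a*, *Myot*, *Cacna1s*, *Atp2a1* and *Ryr1*, genes of striated muscle. Skin RNA was in 4 of 5 knockout and 1 of 5 wild type high-score samples and in none of 6 knockout and 2 of 4 wild type low-score samples.

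The WAVE complex list held 1 called member of 13 (median 0.06), *Rac2*, the blood cell Rac GTPase (4.81 to 15.2 CPM against 23.1 to 90.2 CPM, 2.20 ± 0.26). *Nckap1*, the related subunit of other cells, was at 0.19, and *Wasf1*, *Wasf2*, *Abi1*, *Brk1* and *Cyfip1* were at -0.14 to 0.20. *Cyfip2* was at 1.07 ± 0.19. The genes knocked out in the other lines of the study were looked at after their values were seen. *Dock2*, which activates Rac in leukocytes, was 12.3 to 36.5 CPM and 44.0 to 172 CPM (1.86 ± 0.24). *Gpsm3* was 1.78 to 3.51 CPM and 5.34 to 15.3 CPM (1.497 ± 0.18), *Aif1* was 2.14 to 6.91 CPM and 7.65 to 29.2 CPM (1.57 ± 0.25), and *Dok3* overlapped at 1.55 ± 0.26.

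Gene families were also counted after the values were seen and are given as a description, beside the 2.11% of all genes called higher and the 1.15% called lower. All 5 Fc gamma receptor and *Fcer1g* genes were called higher (2.06 to 3.18), as were 7 of 16 chemokine receptors, 4 of 12 Toll-like receptors (*Tlr2*, *Tlr7*, *Tlr8* and *Tlr13*) and 3 of 5 phagocyte oxidase subunits (*Cybb*, *Ncf1* and *Ncf4*). Of 7 NLRP genes *Nlrp12* (5.74 ± 0.49) and *Nlrp3* (3.90 ± 0.38), which form or regulate inflammasomes, were called. *Il10*, the cytokine that restrains colonic macrophages, was 0.186 to 0.472 CPM and 0.794 to 4.22 CPM (2.68 ± 0.33). Families that metabolise foreign compounds were lower on the median. Of 38 cytochrome P450 genes 26 were below 0, 7 were called lower and 1 higher (median -0.80). For 12 carboxylesterases the median was -1.05 with 2 called lower, for 8 UDP-glucuronosyltransferases -0.75 with 1, for 20 glutathione S-transferases -0.41 with 2, and for 8 sulfotransferases -0.55 with 1, so the last 3 families rest on 1 or 2 called genes each. *Slc6a4*, the serotonin transporter, was 16.1 to 48.3 CPM and 2.57 to 13.1 CPM (-2.13 ± 0.25), *Slc26a2*, a sulfate transporter, was 1028 to 3769 CPM and 149 to 872 CPM (-2.28 ± 0.32), and *Vdr*, the vitamin D receptor, was 258 to 589 CPM and 61.2 to 248 CPM (-1.43 ± 0.23).

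The same rule was applied to the *Dock2* (28 of 42 samples) and *Gpsm3* (26 of 40 samples) lines, taken at day 10, which share no sample with the *Nckap1l* line but were selected on the same 4 genes. All *Gpsm3* samples were from males, and both lines held knockout and wild type mice on the C57BL6/J strain. Their high-score samples had lower scores, with medians of 4.03 and 4.50 against 6.90, and their low-score medians were 0.45 and 0.41 against 1.06. Fitted together, 87 of 17551 genes (0.496%) were called higher and 2 (0.0114%) lower. More samples per group make the rule on overlap stricter, so these counts are not comparable with 368 and 200. Of the day 12 genes that could be fitted at day 10, all 354 higher and all 200 lower genes had the same direction there. Both sets were ranked on the same 4 genes and these genes were called for large differences, so this follows in part from the rule. The share with the same direction over all genes was not counted. Beside the day 12 values, the list medians at day 10 were 4.37 for neutrophil genes against 4.66, 2.10 for chemokines and acute cytokines against 4.07, 1.83 for matrix proteases against 1.99, -0.66 for colonocyte genes against -1.42 and -0.44 for goblet cell genes against -1.06. The day 10 medians cover only the members fitted there. *Cxcl3*, *Il6* and *Csf3*, with the largest day 12 differences of the chemokine and cytokine list, were not fitted at day 10. The medians 2.10 and 4.07 therefore cover different genes. *Saa3* was at 7.51 and *Trem1* at 5.85 at day 10. *Slc30a10* was at -2.59 and *Aqp8* at -1.62. Line, day, days on water after DSS, sex, number of samples and score range all differ between these sets. Per the paper, *Nckap1l* mice also received a slightly lower DSS dose. The difference was not tested, and the parts of these factors cannot be told apart.

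**Figure D5:**
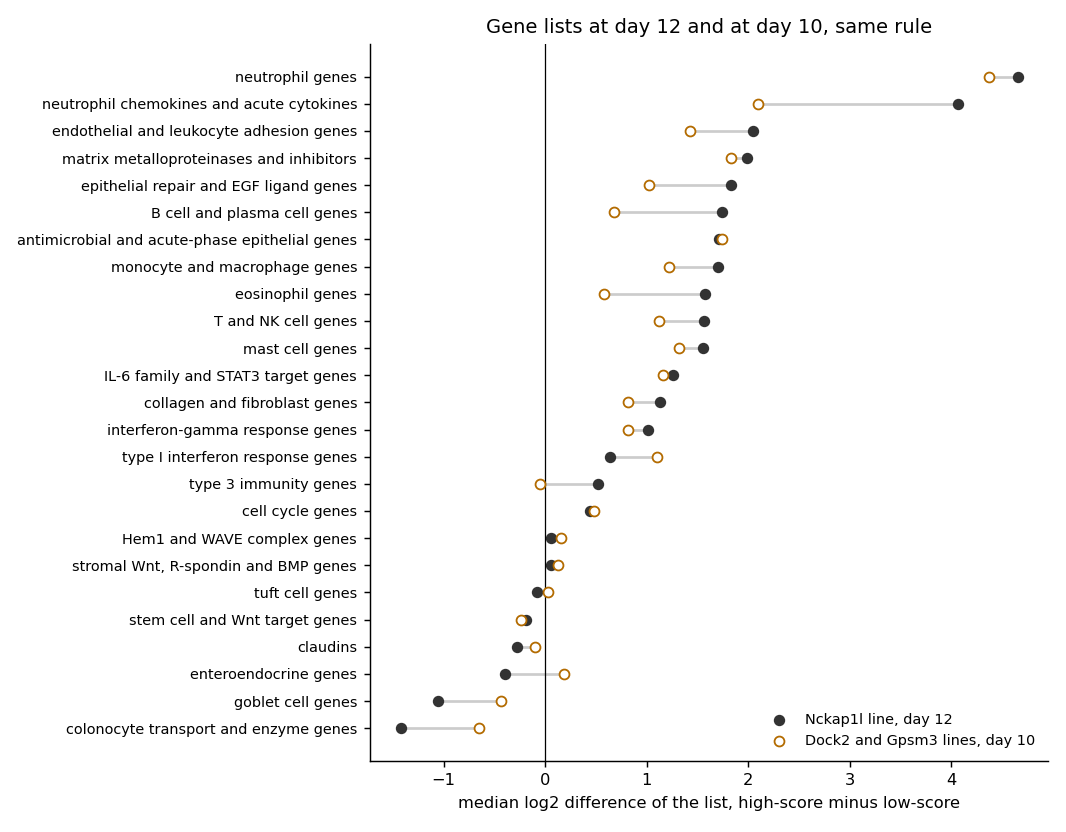
Median log2 difference of high-score minus low-score samples for 25 gene lists in the *Nckap1l* line at day 12 (filled) and in the *Dock2* and *Gpsm3* lines at day 10 (open), by the same rule. Neutrophil genes lie at 4.66 and 4.37, and chemokines and acute cytokines at 4.07 and 2.10. The day 10 medians leave out members not fitted there, among them *Cxcl3*, *Il6* and *Csf3*.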

How the data were processed

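Total RNA of distal colon was sequenced after ribosomal RNA depletion with a strand-marking kit. Per the labels and the submitters' processing notes, the authors deposited raw counts per gene, made with STAR (mm10) and featureCounts of Subread. The strand setting is not given in the sources used here, so overlapping and antisense genes are uncertain. The paper's own tool was limma-voom.

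Samples were ranked by the score and split into 10, 11 and 10 samples within the *Nckap1l* line. Genes were filtered with filterByExpr, normalised with TMM and fitted with edgeR 4.0.16 (quasi-likelihood, genotype as covariate, R 4.3.3). Differences between score groups carry no p-value. The interaction used edgeR with Benjamini-Hochberg adjustment, with DESeq2 1.42.0 and limma 3.58.1 as alternatives. Single values were compared with permutation tests (100000 resamples, exact enumeration within subsets, two-sided, scipy 1.17.1). The labels do not say that samples came from separate cages or litters, and p-values measure the spread between these samples. The fits were tested on simulated data with 200 changed genes. No samples of a genotype agreed within sampling noise (smallest chi-square per gene 8.58 over 225 pairs).

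Of 39179 genes in the files, 17466 were fitted, and 465 of 525 list genes were among them. Named genes were the 12 highest and 12 lowest called protein-coding genes whose average log2 CPM reached 1, up to 4 members of each list with the largest differences, other members a count turns on, and *Nckap1l*. Other genes named were chosen after their values were seen. The members and lists were chosen with earlier results of these data known. Floors of 3 counts cover counting error only, while the SE of a difference also holds the fitted spread between samples. Some genes are not reported here.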

Additional observations from a re-analysis of the deposited data

Results flagged for a closer look

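In 68 groups of 10 samples (the mean log2(CPM + 1) of each list in low-score and in high-score samples, the score and the total count), 4 lists had 1 sample far from the others by Dixon's rule, which chance alone flags in about 1 of 20 groups. Among low-score samples knockout 15 was at 6.41 for collagen and fibroblast genes, with its nearest neighbour at 7.17. Among high-score samples wild type 8 was at 4.71 for type 3 immunity genes (nearest 4.41), knockout 5 at 3.996 for eosinophil genes (nearest 2.71) and wild type 10 at 3.65 for enteric neuron and glia genes (nearest 3.07). Knockout 15 was also 1 of the 2 samples with small intestine and pancreas RNA, and knockout 5 was 1 of the 5 high-score samples with skin RNA. Their part in these values was not tested.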

How the results depend on the processing

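The numbers of genes higher in high-score samples (368) and of genes lower in high-score samples (200) were the same when any 1 score gene was left out and with TMM-normalized CPM in the score, because the same 20 samples were then chosen. DESeq2 on these samples also gave 368 and 200. Fewer samples make it easier for groups not to overlap, by construction. Groups of 15 samples gave 2 higher and 0 lower genes, and groups of 7 gave 871 and 714. Wild type samples alone gave 693 higher, knockout alone 1146 and 890, males alone 619 and 546, and females alone 989 and 565. Ranking within each sample-number run gave 109 lower. Leaving out 1 sample gave 358 to 482 higher and 185 to 309 lower genes, and the 309 came without wild type 1. Of the alternatives added after seeing the data, leaving out run 3 gave 754 higher, run 1 alone 876 and 418, run 2 alone 1289 and 661, leaving out samples with skin RNA 762 and 618, and groups taken anew without them 973 and 832. A log2 difference of at least 2 gave 192 and 49, and allowing overlap 1586 and 664. The knockout minus wild type difference in score turned to 1.36 in females and 1.80 in run 1. The interaction called 361 genes in DESeq2, 47 without the filter and 404 with groups of 15, and the cause was not tested. Without run 3 the sign turned for the median log2 difference, mast cell genes (-0.053), for the median log2 difference, skin keratinocyte genes (-3.89), and for the median log2 difference, striated muscle genes (-2.04). Among values of named genes, 6326 stayed within the spread between samples and 366 moved. In 119 of these 6692 values, over 44 genes, the sign turned, most often within run 1 (39), in wild type samples alone (23) and without run 3 (20). The 39 within run 1 rest on wild type 8. None of the 44 was a called gene, and calls without overlap keep their sign in part by construction. No paired analysis was possible because the labels give no replicate numbers. With the sample-number run in the model 365 higher and 166 lower genes were called, 161 of the 166 among the 200.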
